A study of Mus musculus with 8 samples.

Results

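The endothelial cluster vEC_3 was 1 of 5 large endothelial clusters that the authors named among CD31-stained cells of the mouse aorta-gonad-mesonephros region (AGM), the trunk tissue in which blood stem cells first arise. Its members were taken as every cell that the deposited annotation names vEC_3, which gave 2486 cells of 15168, or 16.4%. They came from all 8 libraries: 265, 231, 120, 472 and 340 cells in WT 1 to 5, and 390, 262 and 406 in Meis1-flox/VE-Cre 1 to 3. The clusters it is set beside were vEC_1 with 2853 cells, vEC_2 with 2706, vEC_4 with 1372 and the arterial cluster aEC with 1512. Cells were profiled by CITE-seq, a single-cell method that reads a cell's RNA, with each captured molecule marked by a unique molecular identifier (UMI), together with DNA-tagged antibodies bound to its surface.

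All embryos were at embryonic day 10.5. The 5 WT libraries carry the strain label C57BL/6 and the genotype WT, and the study's text uses WT for Cre-less littermates with floxed Meis1. The 3 Meis1-flox/VE-Cre libraries carry the genotype Meis1-knockout, in which floxed Meis1 is deleted by a Cre driven by the promoter of VE-cadherin, a gene of all endothelium. Deletion therefore also reaches aEC, the other vEC clusters and blood cells descended from endothelium. Each library was a pool of embryos of 1 genotype, so values describe pools and not single embryos. All cells of both genotypes were stained for CD31, the product of Pecam1, so Pecam1 RNA is no independent check of the cells. The 3′ tags counted here lie outside the floxed exon, so Meis1 RNA does not check the deletion. It lay between 5.45 and 8.38 UMIs per 1000000 UMIs (counts per 1000000, CPM) in the vEC_3 cells of all 8 libraries.

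Veins and arteries of the embryo form from a shared endothelium. Nr2f2, the transcription factor COUP-TFII, holds venous identity and represses Notch signalling, whereas Dll4, Notch4 and Efnb2 mark arterial endothelium. Prox1, the master regulator of lymphatic fate, is switched on in a subset of venous endothelial cells that will leave the vein to found the lymphatic vessels. Venous endothelium also divides readily during this growth phase, so a venous and a proliferative signature can lie in the same cells.

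Depth moved with genotype. The median vEC_3 cell held 27741 to 31678.5 UMIs in WT 1 to 4, 13058.5 in WT 5 and 9445.5 to 14605 in the Meis1-flox/VE-Cre libraries. In the whole series 33 cell barcodes occurred in more than 1 library. No vEC_3 cell was among the 83 cells called as doublets. For comparisons between clusters, UMIs were summed over the cells of each cluster and library and scaled to CPM, and each difference was taken within a library on the log2(CPM + 1) scale. Values are means ± SD over 8 libraries. Because the clusters were drawn from these RNA counts, differences between clusters carry no test. A gene is counted as higher or lower where its mean difference was at least 1.5-fold and had 1 sign in every library.

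The RNA of endothelial and venous markers was as follows, which is no independent check, since the clusters were drawn and named from this RNA. Cdh5, which encodes VE-cadherin, stood at 340 ± 28 CPM in vEC_3, with 312 in the lowest library, a median of 337 and 388 in the highest. It ranged from 347 to 408 CPM on average in the other 4 clusters. Pecam1 stood at 145 ± 12 CPM, against 257 ± 37 in aEC. Nr2f2 stood at 221 ± 24 CPM, with 181 in the lowest library, a median of 227 and 249 in the highest. The venous clusters vEC_1 and vEC_2 lay lower for Nr2f2, at 104 ± 19 and 129 ± 15 CPM, vEC_4 lay higher, at 277 ± 29, and aEC lowest, at 41.8 ± 8.9. The libraries of vEC_3 did not overlap with those of vEC_1, vEC_2 or aEC, and they overlapped with those of vEC_4, whose lowest library was at 241. With every cell thinned to 5000 UMIs, 62.9% of 2477 vEC_3 cells had an Nr2f2 UMI, compared with 0.94% of erythro-myeloid progenitors (EMP), which should lack it. The median unthinned depth was 17108.5 UMIs in vEC_3 and 24015 in EMP.

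Markers of other cells stayed low. The summed CPM of 12 leukocyte genes was 3.12 to 61.6 in vEC_3, against 6.40 to 53.0 in aEC. That of 5 megakaryocyte genes was 8.50 to 30.4 and that of 4 epithelial genes 1.14 to 2.27, with Cdh1 at 0. For 7 hemoglobin genes of red cells it was 9.64 to 161 in vEC_3 and 28.3 to 211 in aEC. Of 8 mesenchyme genes, the 2 that were expressed enough to compare, Col3a1 and Twist1, were counted higher in vEC_3 than in vEC_1, vEC_2 and aEC. The summed mesenchyme level was 14.8 to 19.0 CPM in vEC_3, 3.37 to 6.25 in vEC_2 and 21.3 to 46.7 in vEC_4. The part of other cells' RNA in this was not tested.

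Against the other venous clusters vEC_3 ranked between vEC_2 and vEC_4 in the level of venous genes. Compared with vEC_1, 436 of 10866 genes were counted higher (4.01%) and 492 lower (4.53%). Compared with vEC_2, 288 were higher (2.65%) and 221 lower (2.03%), and compared with vEC_4, 358 were higher (3.29%) and 341 lower (3.14%). The arterial cluster was farthest away, with 1277 genes higher in vEC_3 (11.8%) and 1196 lower (11.0%). When libraries were scaled by their total instead, the split turned to 559 higher and 404 lower against vEC_1, and to 308 and 395 against vEC_4. Against vEC_2 that scaling gave 338 higher and 187 lower.

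Venous genes were among the higher genes. Of the venous list that the study took from earlier work, Nr2f2 and Nrp2 were counted higher in vEC_3 than in vEC_1 and vEC_2, and all 3 genes higher than in aEC. Nrp2, a neuropilin receptor for VEGF-C on veins and lymphatics, averaged 250 ± 23 CPM in vEC_3, with 211, 257 and 272 as its lowest, median and highest library. It exceeded vEC_2 by 0.73 ± 0.14 and vEC_1 by 0.98 ± 0.19 on the log2 scale, and lay below vEC_4 by a difference of -0.43 ± 0.18. Ephb4, the venous receptor for ephrin-B2, averaged 53.5 ± 5.7 CPM and differed from vEC_2 by 0.47 ± 0.17, under the 1.5-fold limit. Dab2, an endocytic adaptor of venous endothelium, averaged 120 ± 15 CPM, compared with 43.1 ± 4.3 in vEC_2 and 162 ± 20 in vEC_4. The other 3 genes of the further venous list, Aplnr, Flt4 and Emcn, were counted in no comparison of all cells between clusters. In the median of the 3 study genes, vEC_3 exceeded vEC_1 by 0.98 and vEC_2 by 0.73, and lay below vEC_4 by a difference of -0.43. Over all genes those medians lay between -0.02 and 0.04.

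**Figure D1:**
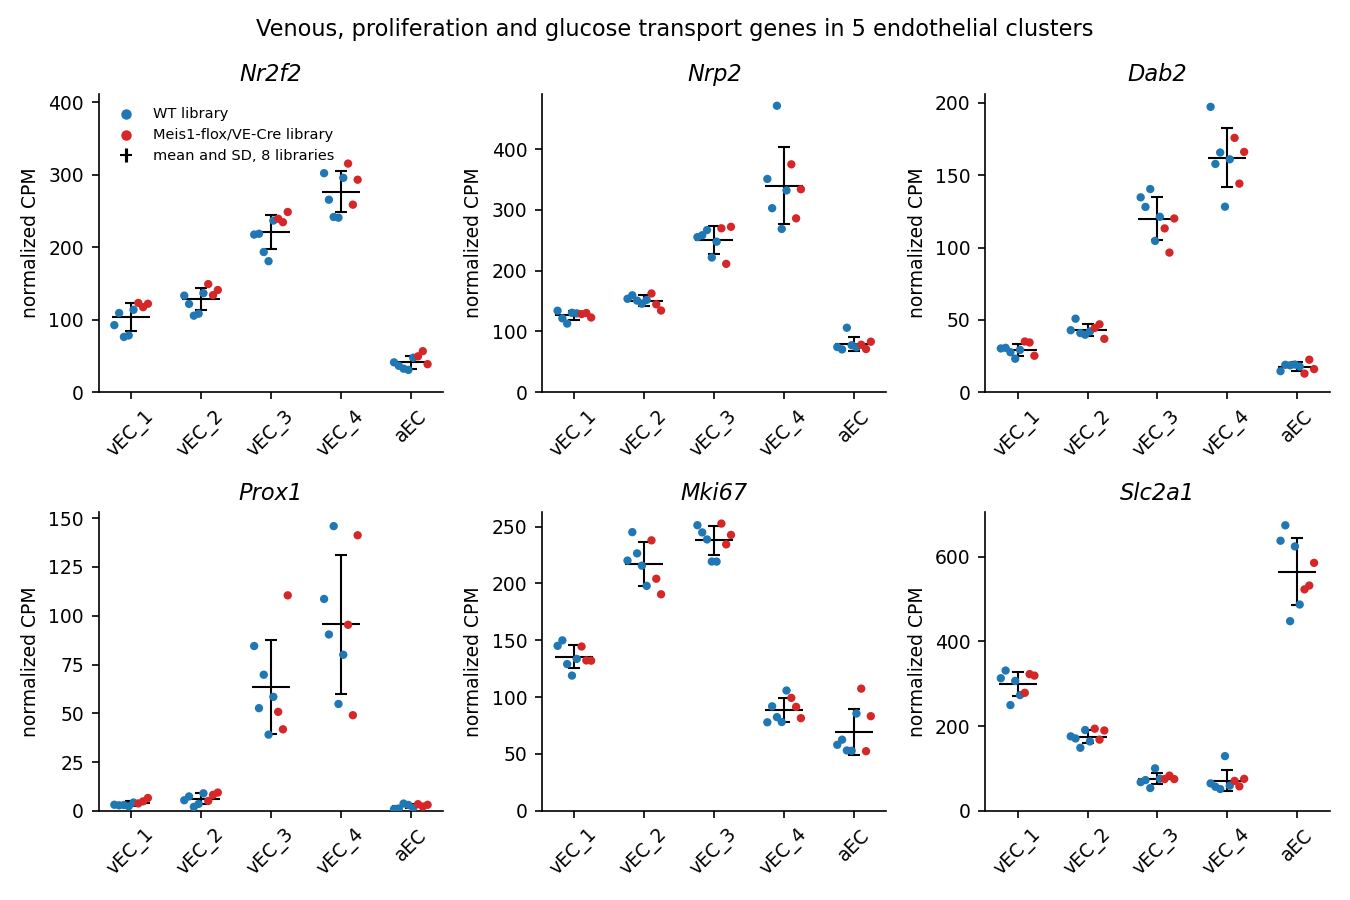
Normalized CPM of 6 genes in the 5 endothelial clusters. Each point is 1 library, blue for WT and red for Meis1-flox/VE-Cre, and bars give the mean and SD of 8 libraries. The venous genes Nr2f2, Nrp2, Dab2 and the lymphatic regulator Prox1 climb from aEC over vEC_1 and vEC_2 to vEC_3 and vEC_4, Mki67 is highest in vEC_2 and vEC_3, and Slc2a1 falls from aEC to vEC_3.

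Among genes that reached 32 CPM in vEC_3 and had the same sign in every library, Prox1 had the largest rise over both vEC_1 and vEC_2. Its CPM in vEC_3 was 84.5, 52.6, 69.8, 39.1 and 58.4 in WT 1 to 5 and 50.7, 41.8 and 110 in Meis1-flox/VE-Cre 1 to 3. The spread among libraries was wide, with the highest library a Meis1-flox/VE-Cre pool and the lowest a WT pool. vEC_1 averaged 3.83 ± 1.4 CPM, vEC_2 6.24 ± 2.7, aEC 2.36 ± 1.1 and vEC_4 95.7 ± 36. The within-library difference was 3.70 ± 0.47 from vEC_1, 3.18 ± 0.73 from vEC_2 and -0.57 ± 0.30 from vEC_4. In thinned cells a Prox1 UMI was found in 16.4% of vEC_3, 22.4% of vEC_4 and 2.71% of vEC_2 cells, compared with 0.80% of EMP. Lyve1, a hyaluronan receptor of lymphatic endothelium, averaged 14.7 ± 3.4 CPM in vEC_3, 1.14 ± 0.92 in vEC_2 and 74.3 ± 18 in vEC_4. The other 3 genes of the lymphatic list, Pdpn, Reln and Ccl21a, were too low to compare.

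Further genes at the head of these comparisons encode ligands and transcription factors. Bmp4, a bone morphogenetic protein ligand, averaged 64.9 ± 26 CPM in vEC_3 and 15.5 ± 6.5 in vEC_2, a difference of 1.98 ± 0.22. Foxc2, a forkhead factor of lymphatic and valve endothelium, averaged 32.9 ± 3.9 CPM in vEC_3, 9.62 ± 3.1 in vEC_2 and 63.0 ± 9.4 in vEC_4. Edn1, which encodes the vasoconstrictor endothelin 1, averaged 33.6 ± 13 CPM, 1.71 ± 0.39 above vEC_2 on the log2 scale. For Bmp4, Foxc2 and Edn1 the mean was higher in vEC_4 than in vEC_3. Nts, which encodes the peptide neurotensin, averaged 65.8 CPM in vEC_3, 48.0 in vEC_4 and 19.3 in vEC_2. Prss23, a serine protease gene, differed from vEC_1 by 2.26 ± 0.35, and Prl3b1, a prolactin family gene, from aEC by 4.08 ± 0.75. Id2, an inhibitor of helix-loop-helix factors, was the second BMP-list gene counted higher than in vEC_1, vEC_2 and aEC, at 156 CPM in vEC_3 and 94.9 in vEC_2.

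Several genes of arterial, sprouting and brain-type endothelium were lower than in vEC_1, vEC_2 and aEC. Of the study's 9 arterial genes 5 were counted lower in vEC_3 than in vEC_1, namely Dll4, Notch4, Jag1, Efnb2 and Epas1, and 6 lower than in aEC, where Nrp1 joined them. Compared with vEC_2, Dll4 and Epas1 were lower and Vegfc, a lymphatic growth factor gene that the study lists as arterial, was higher, by 0.71 ± 0.48. Compared with vEC_4, Jag1 and Epas1 were lower. In a further arterial list Unc5b was higher than in vEC_2, where Hey1, Sox17 and Sema3g were lower. The Notch ligand gene Dll4 averaged 1.71 ± 0.97 CPM in vEC_3, 6.44 ± 2.0 in vEC_2 and 41.3 ± 12 in aEC. Notch1, the receptor gene, averaged 64 ± 8.4 CPM in vEC_3 and 72.8 ± 8.2 in aEC and was counted in no comparison of all cells. Of 11 sprouting genes compared, 5 were lower than in vEC_1 and 10 lower than in aEC. Kcne3, a potassium channel subunit gene of that list, averaged 12.1 ± 8.4 CPM in vEC_3 and 55.1 ± 18 in vEC_2. Of 5 brain-endothelium genes compared, 4 were lower than in vEC_1 and in vEC_2 and 5 lower than in aEC. Among them Lef1, a transcription factor of the Wnt pathway, averaged 28.8 CPM in vEC_3, 63.1 in vEC_2 and 121 in aEC. Against vEC_4 the direction was the opposite for Kcne3, Lef1 and Slc7a5, which were counted higher in vEC_3, and none of the sprouting or brain-endothelium genes was counted lower.

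Slc2a1, which encodes the glucose transporter GLUT1, formed the same gradient. It averaged 75.4 ± 13 CPM in vEC_3, with 53.8, 74.9 and 100 as the lowest, median and highest library. It averaged 175 ± 16 CPM in vEC_2, 299 ± 29 in vEC_1 and 564 ± 79 in aEC, and none of those libraries overlapped with vEC_3. From vEC_4 it differed by 0.13 ± 0.27, less than the spread between libraries. Vwa1, a matrix protein gene, had 96 UMIs over all vEC_3 cells and averaged 1.68 ± 0.44 CPM, compared with 74.6 ± 11 in vEC_1. Foxq1, a forkhead factor, had 26 UMIs there and averaged 0.574 ± 0.28 CPM, compared with 39.9 ± 6.3 in vEC_1 and 157 ± 16 in aEC. Car2, a carbonic anhydrase gene, averaged 3.04 ± 0.71 CPM in vEC_3 and 81.4 ± 24 in vEC_1. Cdh2, which encodes N-cadherin, averaged 28.4 ± 3.2 CPM in vEC_3, 98.2 ± 28 in vEC_2 and 183 ± 36 in vEC_1. Tdrp, Hbegf, St8sia4 and Fzd10 also stood among the 5 largest falls from vEC_1 or vEC_2. The largest falls from aEC were Foxq1, Igfbp7, Vwa1, Gja4 and Esm1. Igfbp7, which encodes a secreted binding protein, averaged 174 CPM in aEC and 0.828 in vEC_3, and Gja4, the gene of connexin 37 in arteries, 145 and 1.07.

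Genes set by blood flow and by position along the body axis also differed. Of 5 flow-responsive genes compared, Klf4 and Thbd were counted higher in vEC_3 than in vEC_1 and vEC_2. Klf4, a Krüppel-like factor, averaged 29.7 ± 6.1 CPM in vEC_3 and 13.3 ± 3.6 in vEC_2, and Thbd, which encodes thrombomodulin, 17.0 ± 2.7 and 9.43 ± 2.5. Klf2 averaged 403 ± 49 CPM and exceeded vEC_2 by 0.51 ± 0.19. Of 17 Hox genes compared, 7 were higher than in vEC_1, 1 higher than in vEC_2 and 13 higher than in aEC. Hoxa5 averaged 77 CPM in vEC_3, 33.5 in vEC_2 and 146 in vEC_4. Against vEC_4, 7 Hox genes were higher, among them Hoxa9 by 0.82 ± 0.39, while Hoxa5 was lower by a difference of -0.90 ± 0.21. In cells matched on cycle shares, described further on, Hoxb8 alone of 12 Hox genes remained counted higher than in vEC_4, and Hoxa5 and Hoxb5 were lower.

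The summed share of cell-cycle genes set vEC_3 apart from vEC_1, vEC_4 and aEC but not from vEC_2. Over thinned cells, genes of a 42-gene S list took 0.419% ± 0.028 of UMIs in vEC_3 and genes of a 52-gene G2/M list 1.08% ± 0.068. The sum of both was 1.4996% ± 0.081 in vEC_3, 1.501% ± 0.074 in vEC_2, 1.29% ± 0.048 in vEC_1, 0.927% ± 0.059 in vEC_4 and 0.886% ± 0.11 in aEC. Within libraries vEC_3 exceeded vEC_4 by 0.573 ± 0.13 percentage points and aEC by 0.613 ± 0.16, each in 8 of 8 libraries. It exceeded vEC_1 by 0.208 ± 0.057 points, in 8 of 8. From vEC_2 the sum differed by -0.0018 ± 0.037 points, with 4 libraries on either side. The S share alone was higher in vEC_3 than in vEC_2 in 8 of 8 libraries, by 0.032 ± 0.015 points. The G2/M share alone differed from vEC_2 by -0.033 ± 0.039 points and was higher in vEC_3 in 2 of 8. Mki67, the gene of the proliferation antigen Ki-67, averaged 238 ± 13 CPM in vEC_3, 217 ± 19 in vEC_2, 136 ± 10 in vEC_1, 88.6 ± 10 in vEC_4 and 69.4 ± 20 in aEC. In thinned cells a Mki67 UMI was found in 58.8% of vEC_3 and 24.01% of vEC_4 cells.

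**Figure D2:**
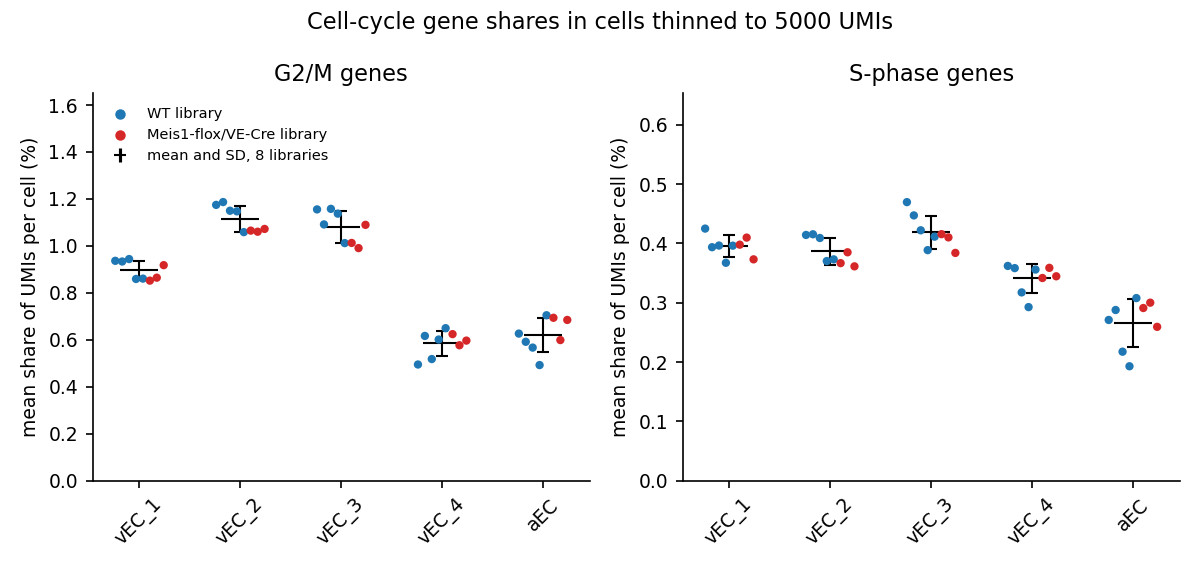
Mean share of UMIs per cell, in percent, that fell on S-phase and on G2/M-phase genes in cells thinned to 5000 UMIs, for 5 clusters. Points are libraries, coloured by genotype, and bars give the mean and SD of 8 libraries. vEC_2 and vEC_3 have the highest G2/M shares, with means of 1.11% and 1.08%, and vEC_4 and aEC the lowest, at 0.585% and 0.620%.

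Cycle genes made up many of the differences from vEC_4. Of 52 G2/M genes 43 were counted higher in vEC_3, with a list median of 1.04 on the log2 scale against 0.04 over all genes. The 5 largest rises were Prc1, Plk1, Ube2c, Aurka and Cdca2, genes of mitosis, of which Prc1 rose by 1.72 ± 0.44. The 5 largest falls were Fabp4, Lyve1, Edn1, Vwf and Sdpr. Fabp4, a fatty acid binding protein gene, averaged 7.79 ± 5.4 CPM in vEC_3 and 50.0 ± 19 in vEC_4, and Vwf, which encodes von Willebrand factor, 14.4 ± 3.3 and 65.8 ± 15. Cdkn1c, an inhibitor of the cell cycle, averaged 252 ± 32 CPM in vEC_3 and 467 ± 110 in vEC_4.

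To separate cycling from identity, endothelial cells were divided into 3 bins of cycle share, and the lowest bin was compared first. In it 393 of 8569 genes were at least 1.5-fold apart from vEC_1 in either direction (4.59%), 196 from vEC_2 (2.29%), 613 from vEC_4 (7.15%) and 1771 from aEC (20.7%). Against vEC_4, however, 31 of the 50 G2/M genes measured there were still counted higher in vEC_3. The lowest bin thus did not level the cycle between these clusters. Cells were then matched, a step chosen after these values had been seen. Within each library, vEC_3 cells were paired 1 to 1 with cells of the other cluster that had nearly the same S and G2/M shares. Cells without such a partner were left out. This gave 1674 pairs with vEC_1, 1996 with vEC_2, 441 with vEC_4 and 469 with aEC, so that against vEC_2 most cells were the same as in the comparison of all cells. In the pairs with vEC_4 the cycle share averaged 1.51% in vEC_3 and 1.48% in vEC_4, compared with 1.5001% and 0.929% in all cells. No S or G2/M gene was counted in the matched cells against vEC_1, vEC_2 or vEC_4, and 2 of each list were against aEC. Since the match used these lists, the levelling of their genes describes the match.

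Among genes that could still be measured, matching removed most of what was higher in vEC_3 than in vEC_4 and less of what was lower. Of 358 genes counted higher in all cells, 291 were measured in the matched cells, and 51 of these remained at least 1.5-fold higher. The median difference of the 291 shrank from 0.79 to 0.32. Of 341 counted lower, only 151 were measured, and 106 of these remained. The median size of the 151 was 0.77 before and 0.75 after. The matched count was 71 higher (0.956%) and 113 lower (1.52%) of 7425 genes in the 7 libraries with enough pairs. Mki67, a G2/M list gene, differed from vEC_4 by 1.42 ± 0.19 in all cells and 0.33 ± 0.14 in matched cells. Fabp4 stayed lower, with -3.03 ± 1.0, as did Lyve1 with -2.18 ± 0.75, Vwf with -2.06 ± 0.81 and Cdkn1c with -0.75 ± 0.28. Nr2f2 kept a difference of -0.26 ± 0.17 from vEC_4. Prox1 had differed from vEC_4 by -0.57 ± 0.30 in all cells, and in matched cells it differed by 0.07 ± 0.61, within the spread between libraries. Matched sums held few cells, between 28 and 83 pairs against vEC_4 in the 7 libraries used, and WT 3 with 8 pairs was left out.

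**Figure D3:**
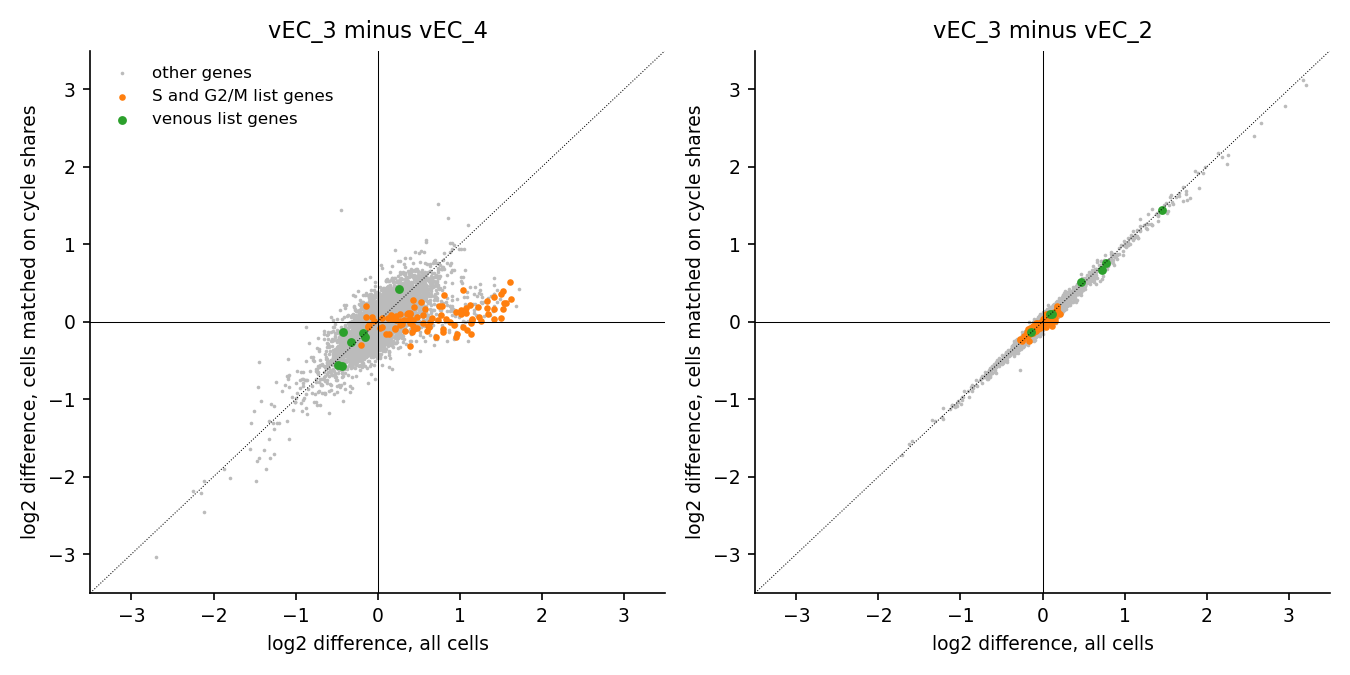
Mean log2 difference of vEC_3 from vEC_4 (left) and vEC_2 (right) in all cells (horizontal) and in cells matched on their S and G2/M shares (vertical), 1 point per gene, with cycle genes in orange, venous genes in green and a dotted line of equal values. Against vEC_4 the G2/M list median falls from 1.04 in all cells to 0.07 in matched cells, which the match on these lists sets. Against vEC_2 genes lie along the dotted line.

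Against vEC_1 and vEC_2 the differences persisted when cycling was matched. Compared with vEC_2, 210 of the 229 higher genes that could be measured and 171 of the 175 lower ones remained at least 1.5-fold apart. In the matched cells 207 genes were higher (2.05%) and 174 lower (1.72%) of 10119. Compared with vEC_1, 303 of 356 higher and 371 of 403 lower genes remained, and 355 (3.6%) and 386 (3.92%) of 9855 genes were counted. Compared with aEC, 494 of 852 higher and 599 of 744 lower genes remained, and 476 (6.47%) and 563 (7.65%) of 7362 were counted. Nr2f2 exceeded vEC_2 by 0.76 ± 0.07 in matched cells and by 0.78 ± 0.07 in all cells. For Prox1 the difference from vEC_2 was 3.12 ± 0.71 in matched and 3.18 ± 0.73 in all cells, for Dab2 1.44 ± 0.28 and 1.45 ± 0.24, and for Slc2a1 -1.23 ± 0.19 and -1.22 ± 0.19. Dll4 differed from vEC_2 by -1.45 ± 0.49 in matched cells.

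Some genes were more abundant in vEC_3 than in each of the 4 other clusters. Each of those named here stayed under the 1.5-fold limit in at least 1 of the 4 comparisons. Gap43, which encodes a growth-cone protein, averaged 314 ± 20 CPM in vEC_3 and 232 ± 24, 227 ± 22, 139 ± 17 and 50.0 ± 18 in vEC_4, vEC_2, vEC_1 and aEC. Its lowest vEC_3 library, at 287, lay above the highest library of every other cluster. Kctd12, an auxiliary subunit gene of GABA-B receptors, averaged 34.1 ± 3.3 CPM in vEC_3 and 25.2 ± 4.8 in vEC_4. In matched cells Gap43 exceeded vEC_4 by 0.40 ± 0.25 and Kctd12 by 0.76 ± 0.25. The others of the 10 that ranked first by the smallest of their 4 differences were Ranbp2, Diaph3, Hist1h3c, Sulf2, Hist1h1b, Cd47, Slmo2 and Bdp1. Diaph3, a formin gene of dividing cells, exceeded vEC_4 by 0.70 ± 0.27 in all cells, and in matched cells it differed by -0.17 ± 0.43. For Hist1h1b, a linker histone gene, the difference from vEC_4 went from 1.26 ± 0.29 to 0.25 ± 0.29. The 10 ranked first among genes lower than in each of the 4 clusters were Abca1, Sepp1, Ddah1, Myct1, Pde8a, BC028528, Mfge8, Igfbp2, Marc2 and Nrep. They too stayed under the 1.5-fold limit in at least 1 of the 4 comparisons. Abca1, a cholesterol transporter gene, averaged 25.1 ± 2.6 CPM in vEC_3 against 35.4 ± 6.4 in vEC_2, the next lowest. In matched cells it still lay below vEC_4, by a difference of -0.54 ± 0.27. Mfge8, which encodes a phosphatidylserine-binding secreted protein, averaged 66.8 ± 9.0 CPM in vEC_3 and 82.6 ± 14 in vEC_2.

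vEC_3 cells also differed among themselves in cycling. The 1173 cells in the highest bin of cycle share had 313 genes at least 1.5-fold higher (2.88%) and 29 lower (0.267%) than the 411 cells in the lowest bin, with a median of 0.20 on the log2 scale over all genes, or 0.12 with unthinned counts. Since the split used these lists, 49 of 52 G2/M genes being higher describes the split. Among the lower genes, Ung, Cdc6, Cdt1 and Ccne2 act at the start of S phase, and Ccne2 averaged 38.7 CPM in the highest and 87.2 in the lowest bin. Nr2f2, Nrp2 and Prox1 differed by less than the spread between libraries. Nr2f2 differed by 0.27 ± 0.34, Nrp2 by 0.11 ± 0.17 and Prox1 by -0.01 ± 0.54, while Dab2 differed by 0.26 ± 0.25, with 6 of 8 libraries higher. None of the venous, arterial, sprouting, lymphatic or Hox genes was counted in either direction.

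A second axis ran along Prox1 and was described after the values had been seen. In thinned cells 405 vEC_3 cells held a Prox1 UMI and 2072 did not, and the cycle share averaged 1.53% and 1.49%. Of 10866 genes, 84 were at least 1.5-fold higher in cells with Prox1 (0.773%) and 212 lower (1.95%), Prox1 itself among the higher. The smaller sum held as few as 20 cells, or 100000 UMIs, so that 1 UMI stood for 10.0 CPM. Of the 212 lower genes 87 averaged less than that in the cells with Prox1. With unthinned counts 141 genes were higher and 163 lower. The median over all genes was -0.12 thinned and 0.01 unthinned, and the differences below are to be read against it. Between 12.5% and 22.2% of vEC_3 cells per library had the UMI.

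Of the venous genes only Nrp2 was counted higher in the cells with Prox1, and Aplnr and Emcn were counted lower. Nrp2 averaged 459 ± 34 CPM with and 224 ± 32 without Prox1, and its difference lay between 0.67 and 1.39 on the log2 scale in the 8 libraries. Nr2f2 differed by 0.32 ± 0.26, with 7 libraries higher and 1 lower. Unc5b, a netrin receptor gene, averaged 41.7 ± 16 CPM with and 4.28 ± 1.5 without. Nnat, which encodes neuronatin, averaged 317 ± 49 and 57.4 ± 6.1, and Nts 141 ± 51 and 45.4 ± 13. Tbx1, a T-box factor needed for lymphatic vessels, averaged 57.3 ± 18 and 19.7 ± 6.4. Stab1, a scavenger receptor gene of sinusoids and lymphatics, averaged 188 ± 33 and 105 ± 18. Col26a1, Creb5, Sgk3, Hpn, Tgfbi and Hoxd4 completed the 10 largest rises among genes of at least 32 CPM.

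Flow-responsive genes and several Hox genes were lower in the cells with Prox1. Klf2 averaged 228 ± 75 CPM with and 454 ± 64 without, lower in 8 of 8 libraries by -0.67 to -1.85. Of 5 flow-responsive genes 4 were counted lower, namely Klf2, Klf4, Nos3 and Thbd. The differences of the latter 3 shrank from -1.40, -1.87 and -1.89 to -0.57, -0.78 and -0.64 with unthinned counts. Of 17 Hox genes 6 were lower, Hoxa7, Hoxa9, Hoxa10, Hoxb6, Hoxb7 and Hoxb8, and Hoxd4 was higher. Hoxa10 and Hoxb6 held only 135 and 273 UMIs over all vEC_3 cells. Their differences lie near the floor of these sums, where 1 UMI stood for up to 10.0 CPM. Hoxa9 averaged 3.12 ± 3.4 CPM with and 25.8 ± 5.4 without, a difference of -1.89 with unthinned counts. Flt1, the gene of VEGF receptor 1, averaged 98.7 ± 18 and 202 ± 37, and Emcn, the sialomucin gene endomucin, 527 ± 84 and 879 ± 98. Cdh5 differed by -0.20 ± 0.12, Pecam1 by 0.04 ± 0.36 and no S-phase gene was counted.

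**Figure D4:**
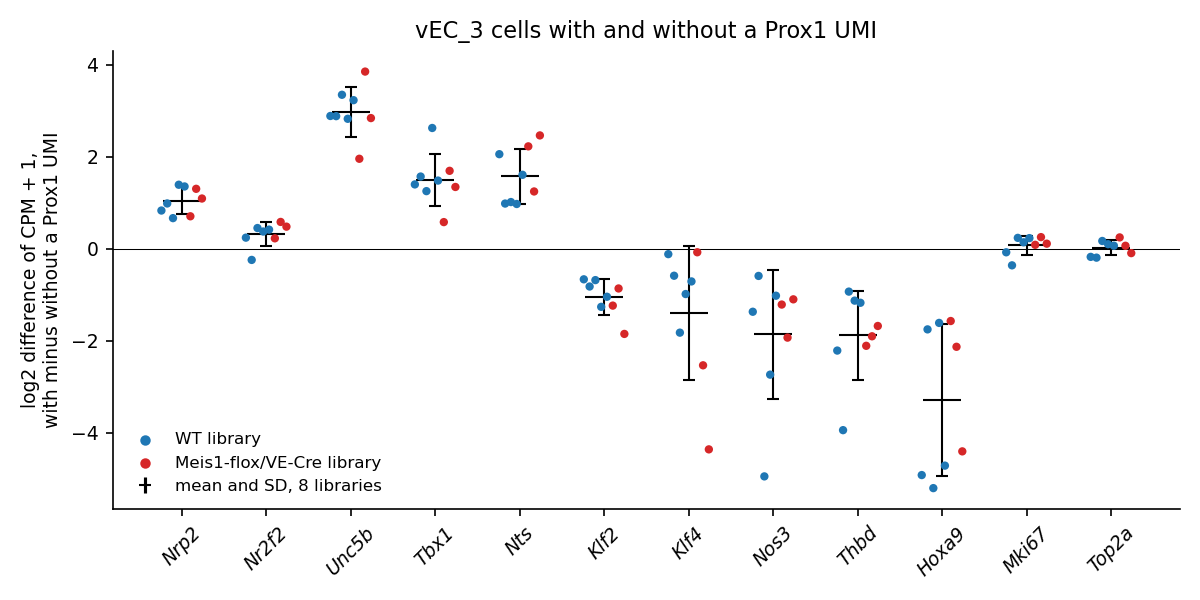
Log2 difference of CPM + 1 between vEC_3 cells with and without a Prox1 UMI for 12 genes, 1 point per library, blue for WT and red for Meis1-flox/VE-Cre, with bars for the mean and SD. Nrp2, Unc5b, Tbx1 and Nts lie above 0 and Klf2, Klf4, Nos3, Thbd and Hoxa9 below 0 in all 8 libraries, while Mki67 and Top2a scatter around 0.

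The clusters were drawn on RNA alone, so a difference in antibody tags could be tested. Tags were counted in 7 libraries, as WT 4 had none, and CD44 in 4. All 6 antibodies target proteins of blood cells or of cells that bud from endothelium, and mean counts per vEC_3 cell were low in most libraries. For CD45-2, the leukocyte antigen CD45, they were 71.6, 96.2, 37.7 and 11.1 in WT 1, 2, 3 and 5. In Meis1-flox/VE-Cre 1 to 3 they were 15.0, 10.0 and 5.87, so libraries differed far more than endothelial clusters. Of 24 pairs of tag and cluster, 11 passed the exact sign-flip permutation test over libraries, two-sided, each at a Benjamini-Hochberg adjusted p of 0.0341. Each had the smallest unadjusted p that this test can give with 7 libraries, 0.0156. In cells matched on RNA depth, a step chosen after the data had been seen, 5 of the 11 no longer passed. These were CD117-c-kit against vEC_1 (exact permutation test, adjusted p = 0.1) and, against aEC, CD41, CD43, CD45-2 and CD27 (exact permutation test, adjusted p = 0.668, 0.665, 0.0536 and 0.158).

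Against vEC_2, which has nearly the same depth and cycle share, 3 tags were higher in vEC_3 in 7 of 7 libraries. The log2 ratio was 0.28 ± 0.079 for CD45-2, 0.22 ± 0.14 for CD27 and 0.16 ± 0.057 for CD43. In WT 1, CD45-2 averaged 71.6 counts in vEC_3, 922 in myeloid cells and 170 in EMP, and CD43 49.8, 302 and 584. CD27 in WT 1 averaged 29.7, 61.8 and 47.2, and vEC_3 lay below myeloid cells in every WT library with tags. In each Meis1-flox/VE-Cre library CD27 was higher in vEC_3 than in myeloid cells and EMP. It stood at 4.24, 3.17 and 1.82 in Meis1-flox/VE-Cre 1. Ptprc, the gene of CD45, had 19 UMIs over all vEC_3 cells. The part of background staining in these ratios was not tested. The same tags were higher against vEC_1, by 0.72 ± 0.12, 0.54 ± 0.13 and 0.44 ± 0.11. RNA depth also differed between the clusters: the median cell held 20661 UMIs in vEC_3 as a mean over libraries, 21826 in vEC_2, 17946 in vEC_1, 14533 in vEC_4 and 14992 in aEC. With vEC_3 cells matched to cells of like RNA depth, the 3 ratios to vEC_2 were 0.34, 0.26 and 0.21 and those to vEC_1 0.55, 0.37 and 0.28, each with an exact permutation test at adjusted p = 0.0341. Ratios to vEC_4 were between -0.22 and 0.11 without the match and between -0.77 and -0.30 with it, where CD117-c-kit, CD41, CD43 and CD45-2 passed (exact permutation test, adjusted p = 0.0341). CD44 could not reach the threshold in any pair, since 4 libraries allow no p below 0.125.

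**Figure D5:**
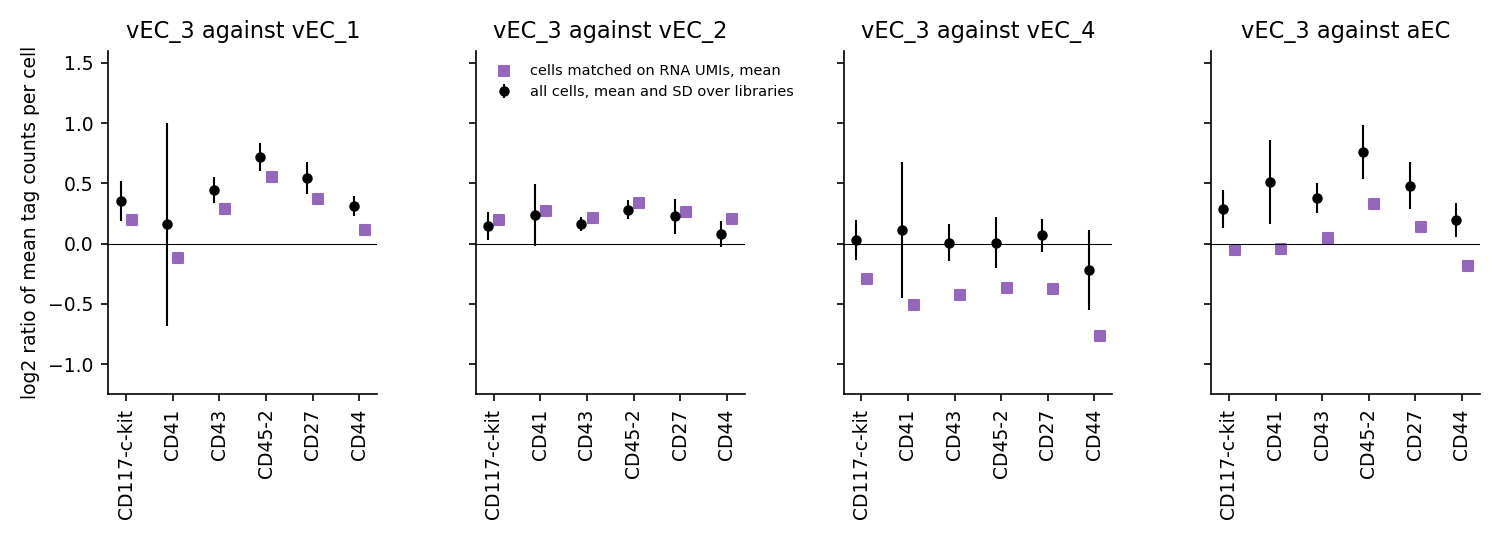
Log2 ratio of the mean tag count per cell in vEC_3 to that in vEC_1, vEC_2, vEC_4 and aEC for 6 antibody tags, with black circles and bars for the mean and SD over libraries in all cells and squares for the mean in cells matched on RNA depth. CD43, CD45-2 and CD27 lie above 0 against vEC_1 and vEC_2 by both measures, and against vEC_4 the matched means lie between -0.77 and -0.30.

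Whether loss of Meis1 changed vEC_3 was asked over libraries, 5 against 3. The share of vEC_3 among cells of the 5 endothelial clusters was 25.0%, 23.1%, 22.6%, 22.1% and 21.7% in WT 1 to 5 and 23.4%, 17.3% and 27.9% in Meis1-flox/VE-Cre 1 to 3. The Meis1-flox/VE-Cre libraries thus held both the lowest and the highest share. Means were 22.9% ± 1.3 and 22.9% ± 5.3, a difference of -0.044 points (exact permutation test, two-sided, p = 1, smallest possible 0.0179). Exact binomial intervals per library spanned from 15.4% to 19.3% for the lowest and from 25.6% to 30.3% for the highest share, and cover counting error only.

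Cycle shares did not pass the test between genotypes. The G2/M share of UMIs in vEC_3 was 1.11% ± 0.061 in WT and 1.03% ± 0.052 in Meis1-flox/VE-Cre libraries (exact permutation test, p = 0.107). Without WT 5 the difference was -0.104 points with an exact permutation p of 0.0286. The S share was 0.428% ± 0.031 and 0.403% ± 0.017 (exact permutation test, p = 0.25).

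Gene by gene, 0 of 10744 genes in vEC_3 differed between genotypes at an adjusted p under 0.1 (0%) by the quasi-likelihood test of edgeR, while 1485 had an unadjusted p under 0.05. DESeq2 called 87, 35 higher and 52 lower, with 1169 at an unadjusted p under 0.05. This count hung on 1 library: without WT 5, the WT library of Meis1-flox/VE-Cre depth, 898 genes were called, 487 higher and 411 lower. A fit with WT 5 as the only WT library leaves that group without replicates, so it cannot decide what the 898 calls reflect. In the 7 libraries without WT 5, depth and genotype cannot be told apart. Hist1h1b divided in the same way, at 806 to 1368 CPM in WT 1 to 4, 205 in WT 5 and 206 to 272 in Meis1-flox/VE-Cre libraries. Bmp4 stood at 34.3, 40.2, 45.1 and 42.0 CPM in WT 1 to 4, at 92.1 in WT 5 and at 89.7, 91.2 and 84.6 in Meis1-flox/VE-Cre libraries (adjusted p = 0.209, edgeR). For Nr2f2 the values were 218, 219, 194, 181 and 237 CPM in WT and 240, 235 and 249 in Meis1-flox/VE-Cre libraries, a difference of 0.22 ± 0.10 (SE, edgeR adjusted p = 0.339). Nrp2 differed by 0.03 ± 0.11, Prox1 by 0.22 ± 0.28 and Ephb4 by 0.00 ± 0.11, with edgeR adjusted p values of 0.931, 0.755 and 1.

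No list had a member past the threshold between genotypes. Of 42 S-phase genes 8 had an unadjusted p under 0.05, all lower in Meis1-flox/VE-Cre libraries, with a list median of -0.07 on the log2 scale against 0.01 over all genes. The 4 leukocyte genes that could be tested all had an unadjusted p under 0.05 and were higher, with a median of 1.52. Among them Lyz2, which encodes lysozyme, had 2, 4, 0, 8 and 3 UMIs in WT 1 to 5 and 15, 13 and 12 in Meis1-flox/VE-Cre libraries (edgeR adjusted p = 0.142). The summed level of all 12 leukocyte genes was 3.12 to 18.6 CPM in WT and 17.4 to 61.6 in Meis1-flox/VE-Cre vEC_3 cells, and its part in the other genotype values was not tested. Hoxb8, the Hox gene with the smallest adjusted p, averaged 17.9 ± 3.6 CPM in WT and 28.9 ± 2.6 in Meis1-flox/VE-Cre libraries (edgeR adjusted p = 0.155).

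A test of the genotype effect in vEC_3 against that in vEC_1, vEC_2 and vEC_4 together called 4 of 11734 genes (0.0341%), and 594 had an unadjusted p under 0.05. Alpk2, an alpha-kinase gene, differed by 1.39 ± 0.26 (SE) and Dqx1, a helicase-like gene, by -1.30 ± 0.24, both with an edgeR adjusted p of 0.0131. Adm, which encodes the vascular peptide adrenomedullin, differed by -1.85 ± 0.37 and Gm7120 by -2.33 ± 0.49, with adjusted p values of 0.0308 and 0.0621 by edgeR. Their levels were low: Alpk2 averaged 3.09 ± 2.4 CPM in WT and 8.91 ± 8.0 in Meis1-flox/VE-Cre vEC_3 cells, and its Meis1-flox/VE-Cre counts were 48, 1 and 103 UMIs. For Adm, WT 4 alone held 190 of the WT UMIs, with 5 to 9 in the other WT libraries. DESeq2 called none of them and had 122 genes with an unadjusted p under 0.05, and without Meis1-flox/VE-Cre 3 edgeR called none, with 570 at an unadjusted p under 0.05.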

How the data were processed

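CD31-stained cells of the E10.5 AGM were profiled in 8 libraries, of which 5 were WT and the other 3 carried VE-Cre. The authors counted UMIs per gene and per antibody tag with Cell Ranger 3.0.2 on mm10, as named in the submitters' processing notes, and deposited raw whole-number counts with a cell annotation. They filtered cells on detected genes (the fewest found here was 2001) and on the mitochondrial share, integrated the samples and clustered cells on RNA. Totals were 20484881 to 79429129 UMIs per library. WT 4 had no tag counts, and CD44 was counted in 4 libraries. Doublets were called here from the counts of each library with Scrublet (scanpy 1.11.5). Leaving those 83 cells out is among the alternatives.

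Counts were summed per library and cluster, with at least 10 cells per sum. Cluster comparisons used TMM-normalized CPM (edgeR 4.0.16, R 4.3.3) with a pseudocount of 1. Genotype was tested with edgeR's quasi-likelihood test (filterByExpr, Benjamini-Hochberg adjusted p under 0.1) and, as an alternative, DESeq2 1.42.0. Shares and tags used exact permutation tests at 0.05 (scipy 1.17.1, Python 3.11.15). Each cell was thinned to 5000 UMIs for cycle shares, splits of vEC_3 and shares of cells with a UMI. Matched pairs differed by at most 0.1 percentage points in their S and G2/M shares.

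Genes were named where a list held them or, per comparison, as the 5 largest rises and falls among genes of at least 32 CPM in the higher cluster with 1 sign in every library. For genes apart from all 4 clusters, and within vEC_3, up to 10 each way were named. A gene that this rule selected is not reported here. The members, the 26 gene lists and the tests were chosen with earlier results of these data known. On simulated counts the genotype test recovered 96% of 200 genes changed by 1.5 on the log2 scale among 10744, with 10.7% false calls. The test of the genotype difference between clusters recovered 94.5% among 11734, with 11.7% false calls. Each simulated gene varied independently around a pooled profile, without shifts shared by many genes of a library, as in WT 5. The recovery therefore does not carry over to such shifts or to smaller changes. The libraries are pools, and p-values measure the spread between pools. UMI intervals cover counting error only. Other cell types were not analysed here beyond the background values given.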

Additional observations from a re-analysis of the deposited data

Results flagged for a closer look

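Among 69 groups of WT libraries examined for a value far from the others, 9 had one. Groups held 5 libraries, or 4 for antibody tags, which WT 4 lacked. Chance alone would give about 1 in 20. WT 5 stood apart in depth, with a median of 13058.5 UMIs per vEC_3 cell against 27741 to 31678.5 in the other WT libraries. It also stood apart in Bmp4, at 92.1 CPM against 34.3 to 45.1, in Cdh2, at 32.9 against 27.1 to 28.6, in St8sia4, at 17.0 against 12.9 to 14.1, and in Sulf2, at 65.5 against 54.0 to 56.3. For Bmp4 the Meis1-flox/VE-Cre libraries lay at 84.6 to 91.2 CPM and for Sulf2 at 68.7 to 79.6, on the side of WT 5. WT 4 was apart in Edn1, at 65.1 CPM against 29.4 to 33.1, in Foxc2, at 25.4 against 31.6 to 34.1, and in Kcne3, at 32.04 against 4.76 to 11.96. WT 3 was apart in Myct1, at 38.9 CPM against 49.4 to 50.8. The causes were not tested.

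For 4 genes the effect of genotype in vEC_3 differed from that in vEC_1, vEC_2 and vEC_4 together by the interaction test of edgeR. The log2 differences were 1.39 for Alpk2, -1.30 for Dqx1, -1.85 for Adm and -2.33 for Gm7120. Across 16 alternatives they passed the threshold in 13, 13, 8 and 7. The adjusted p-value ranged from 1.13e-05 to 1.0 for Alpk2 and from 6.0e-11 to 0.857 for Dqx1. For Adm it ranged from 0.000132 to 1.0 and for Gm7120 from 8.31e-06 to 1.0. Dqx1 averaged 12.7 CPM in WT and 6.72 in Meis1-flox/VE-Cre vEC_3 cells, and 10.3 and 13.3 CPM in the other venous clusters. Gm7120 averaged 1.82 and 2.75 CPM in vEC_3 and 0.810 and 6.37 in the others.

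The count table holds a CreERT2 row that no comparison used. It was 0 in all 5 WT libraries and had 12, 3 and 19 UMIs over all cells of Meis1-flox/VE-Cre 1 to 3, of which the first and last exceed the 3 counts that a 0 allows. In vEC_3 cells it held 3, 0 and 6 UMIs.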

How the results depend on the processing

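Between clusters, a 2-fold limit gave 401, 204, 210 and 1139 genes apart from vEC_1, vEC_2, vEC_4 and aEC, and thinning gave 297 for vEC_2. In place of the lowest bin of cycle share, the mean of the 3 bins gave 862 genes for vEC_1 and 440 for vEC_2, G1-called cells gave 1980 for vEC_2 and 1059 for vEC_4, and cycle-matched cells gave 741, 381, 184 and 1039. Leaving out 1 library gave 932 to 979, 496 to 544, 696 to 781 and 2491 to 2590 genes in all cells, 410 to 441 between cycle bins and 339 to 411 for the Prox1 split. For genes named by size, 25 of 1800 differences moved by more than the spread between libraries under another setting, the matching aside. The settings were another scaling, pseudocount, filter, threshold, depth or choice of libraries. Sign changes were sought only for genes at least 1.5-fold apart, and none was found. Since the named genes were picked for 1 sign in all 8 libraries, a change of libraries, pseudocount, filter or threshold could not turn it.

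The difference in share ranged from -2.57 to 2.74 points when 1 library was left out, with the sign turned without WT 1 (0.478), WT 2 (0.0149) or Meis1-flox/VE-Cre 2 (2.74), and exact permutation p from 0.0952 to 1. The G2/M difference ranged from -0.109 to -0.0596, passing without WT 5 alone (-0.104), and turned to 4.14 points for the share of cells called G2M (exact permutation p = 0.125).

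Genes called between genotypes numbered 87 with DESeq2, 293 with no filter, 27 after thinning, 26 in the lowest cycle bin and 0 to 898 when 1 library was left out, with 898 without WT 5 and 2 without Meis1-flox/VE-Cre 3. Interaction calls numbered 0 with DESeq2, 9 with no filter, 1 after thinning and 0 to 9 when 1 library was left out, with 9 without WT 5, 2 without WT 4 and 0 without Meis1-flox/VE-Cre 3. In the lowest cycle bin Adm turned to 0.116 and Gm7120 to 1.21. The causes were not tested.

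With the replicate block, libraries 1 to 3 of each genotype gave 1464 genotype calls and 27 interaction calls, against 611 and 12 for the same libraries unblocked. Same-numbered libraries correlated by -0.0569, 0.1347 and 0.1625 in their deviations, and not every library correlated best with its own number, so the numbers do not pair the pools. The block changed no call for the share of vEC_3 or its S and G2/M shares.

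Tag ratios turned sign per RNA UMI and in depth-matched cells, in that order, for CD117-c-kit against vEC_4 (-0.437, -0.298) and aEC (-0.144, -0.0529). They did so for CD41 against vEC_1 (-0.0181, -0.117) and vEC_4 (-0.324, -0.511) and for CD44 against aEC (-0.253, -0.190). They also did for CD43 (-0.481, -0.425), CD45-2 (-0.490, -0.367) and CD27 (-0.401, -0.379) against vEC_4. CD41 against aEC turned in matched cells only (-0.0448) and CD43 against aEC per UMI only (-0.0588). When 1 library was left out, ratios to vEC_4 ranged from -0.0399 to 0.281 for CD41, -0.0283 to 0.0446 for CD43 and -0.0461 to 0.0424 for CD45-2. With 1 library left out 0 pairs passed, as too few of them reached the smallest p that 6 libraries allow.

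Depth limits low genes, as 1 UMI is worth 10.0 CPM in the smallest sum of Prox1 cells and the vEC_4 matched sums hold as few as 28 pairs. The matching, the Prox1 split without thinning and the unblocked fit of 6 libraries were chosen after the data had been seen.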

Other observations

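Smaller lists held a few genes with the same order of clusters. Procr, the endothelial protein C receptor gene, averaged 15.4 ± 3.3 CPM in vEC_3, 7.22 ± 1.8 in vEC_2 and 39.9 ± 8.1 in vEC_4. Stab2, a hyaluronan scavenger receptor gene of sinusoids, averaged 14.2 ± 3.6 CPM in vEC_3 and 4.75 ± 1.1 in vEC_2, and it differed from vEC_4 by -0.16 ± 0.46 on the log2 scale. Dll1 averaged 12.3 ± 2.9 CPM in vEC_3 and 1.72 ± 0.77 in aEC, and was the 1 Notch ligand gene of the lists that was counted higher than in aEC.

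Of 18 hypoxia and glycolysis genes, Slc2a1 was counted lower than in vEC_2, and Vegfa and Ndrg1 were counted higher. Vegfa averaged 6.01 ± 2.4 CPM in vEC_3 and 3.55 ± 1.7 in vEC_2. Of 12 immediate early genes that respond to handling and stress, Ier3 and Atf3 were counted lower than in vEC_1, Nr4a1 lower than in vEC_2 and Btg2 lower than in vEC_4. Junb, Ier3, Atf3, Dusp1 and Nr4a1 were lower than in aEC, and none was higher in any of the 4 comparisons.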
